A study of Homo sapiens with 14 samples.

Results

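Peaks beside centromeres were taken as the peaks of anti-GATA1 chromatin immunoprecipitation (ChIP) whose summit, the position of highest enrichment, lay in one of 10 fixed windows of the human genome build hg38. The windows were chromosome 1 from 120.5 to 145.5 Mb, chromosome 2 from 87 to 97.5 Mb, chromosome 4 from 48.5 to 52.5 Mb, chromosome 7 from 56 to 65 Mb, chromosome 9 from 38.5 to 68.5 Mb, chromosome 10 from 38 to 43 Mb, chromosome 16 from 31.8 to 47.2 Mb, chromosome 17 from 21 to 27.5 Mb, chromosome 20 from 25.5 to 31.5 Mb and chromosome 22 from 10 to 19 Mb. Of the 370209 peaks that the deposited lists held on chromosomes 1 to 22, X and Y, 6199 met this rule, which uses position alone. A whole list means its peaks on these chromosomes throughout. The list labelled shControl held 2269 such peaks among 121070, and the list labelled shHDAC5 held 3930 among 249139.

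The ChIP was done in PANC-1, an established human pancreatic cancer cell line. The cells carried either a control hairpin (shControl, genotype labelled WT) or a hairpin against the histone deacetylase gene HDAC5 (shHDAC5, genotype labelled HDAC5 knockdown) and were taken at day 3. Each condition had 2 immunoprecipitations and 2 inputs but 1 peak list, so no spread between replicates could be had for any peak and no test between the lists was made. RNA was sequenced in 6 libraries labelled BxPC-3, another pancreatic cancer line, with 3 shControl and 3 shHDAC5 libraries at day 3.

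The labels of the peak lists did not match the peak names inside them. All peaks of the list labelled shControl carried names with "SAHA", an abbreviation in common use for a deacetylase inhibitor, and all peaks of the list labelled shHDAC5 carried names with "NC", the letters in the titles of the control immunoprecipitations. The lists are therefore called the shControl-labelled and the shHDAC5-labelled list, and no direction of an HDAC5 effect is read from them.

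A centromere is the part of a chromosome on which the kinetochore is built and to which spindle fibres attach in division. Human centromeres consist of long arrays of satellite DNA, short units repeated head to tail, which hold next to no genes and are densely packed. Around them lie segmental duplications, large blocks copied between chromosome arms, with many pseudogenes and gene families of near-identical members. GATA1 is a zinc finger transcription factor of red blood cell and platelet precursors that recognises the letters GATA flanked by A or T on the left and A or G on the right. Short reads from satellites and duplications can match several places equally well.

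RefSeq listed 1574 genes in the windows, of which 216 were protein-coding, 872 were pseudogenes and 367 were long noncoding RNA genes. In each window the longest stretch with no RefSeq gene of any kind is called the gene-free stretch, and the remainder the flank. The 10 gene-free stretches made up 69.8 Mb, or 58.0% of the windows, and the flanks 50.6 Mb. Less the parts of at least 1 Mb where neither list had a peak, these lengths were 28.7 and 48.9 Mb. Whether reads could be placed in those parts was not tested.

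Sequences of the summits in the gene-free stretches were not used here, and the sequences shown are those of promoters in the flanks. They are shown because a peak at q of at most 0.05 had its summit in them, before the start of transcription, and because most of them share a stretch of sequence with a promoter elsewhere. Each is given 5′ to 3′ on the gene's strand as the 250 bases before the RefSeq start in GRCh38, the assembly that hg38 names, with the 21 bases centred on the summit in capitals. ANKRD36C encodes an ankyrin repeat protein (chr2:95991825-95992074, minus strand) and FAHD2A a member of the fumarylacetoacetate hydrolase family (chr2:95402458-95402707, plus strand). LINC01145 (chr1:145216053-145216302, minus strand) and LOC124907857 (chr2:95077043-95077292, minus strand) are long noncoding RNA genes.
ANKRD36C: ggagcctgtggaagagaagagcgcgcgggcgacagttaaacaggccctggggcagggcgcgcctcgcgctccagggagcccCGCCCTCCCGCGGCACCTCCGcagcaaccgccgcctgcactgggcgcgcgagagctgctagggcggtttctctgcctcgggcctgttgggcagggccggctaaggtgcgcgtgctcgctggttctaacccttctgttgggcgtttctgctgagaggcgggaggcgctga
FAHD2A: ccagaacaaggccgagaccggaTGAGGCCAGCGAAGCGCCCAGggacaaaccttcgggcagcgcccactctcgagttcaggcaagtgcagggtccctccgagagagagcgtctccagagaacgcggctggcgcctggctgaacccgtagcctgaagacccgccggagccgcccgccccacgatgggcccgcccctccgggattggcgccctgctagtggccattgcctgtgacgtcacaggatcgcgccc
LINC01145: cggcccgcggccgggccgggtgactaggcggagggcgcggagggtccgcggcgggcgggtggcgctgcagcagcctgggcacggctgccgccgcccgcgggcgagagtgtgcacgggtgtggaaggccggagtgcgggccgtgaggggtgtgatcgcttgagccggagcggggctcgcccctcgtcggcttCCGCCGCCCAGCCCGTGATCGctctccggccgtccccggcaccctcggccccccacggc
LOC124907857: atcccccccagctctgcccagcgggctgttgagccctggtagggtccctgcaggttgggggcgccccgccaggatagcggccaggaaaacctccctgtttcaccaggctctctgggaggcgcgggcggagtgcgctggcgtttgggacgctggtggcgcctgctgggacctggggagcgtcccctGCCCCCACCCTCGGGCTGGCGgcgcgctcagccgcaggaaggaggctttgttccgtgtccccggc
All 4 peaks came from the shControl-labelled list, with fold enrichments over the caller's background of 4.64, 4.64, 4.36 and 4.36 in the order shown and a −log10 q of 1.80 each. None of the 4 sequences held GATA with A or T before it and A or G after it on either strand, the form that GATA1 is known for. Their G+C content was 70.4%, 68.8%, 80.0% and 72.0%. At least 50 bases in a row of the ANKRD36C promoter recurred in that of ANKRD36B, and of the FAHD2A promoter in that of FAHD2B. The LINC01145 promoter shared such a run with LINC00623, LINC00869 and LINC01138, whereas LOC124907857 shared none with another RefSeq promoter.

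Sharing of this kind was common in the windows. Of 428 genes in the windows with a RefSeq promoter sequence (250 bases before to 50 after the start), 156 (36.4%, 95% exact binomial interval 31.9 to 41.2) shared 50 bases with a promoter more than 10 kb away or on another chromosome. Elsewhere it was 841 of 26879 genes (3.13%, 2.92 to 3.34). The promoters of 28 genes held a summit of the shControl-labelled list, 5 of them at q of at most 0.05, and 11 of the 28 (39.3%, 21.5 to 59.4) shared bases in this way. The fifth of those 5 peaks had its summit after the start of the long noncoding RNA gene LOC105377635, so its sequence is not shown. Only 5 genes had a promoter with a summit of the shHDAC5-labelled list, none of them at q of at most 0.05.

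This GATA form, searched on both strands, was found in 8769 of all 35116 RefSeq promoter sequences of this length (25.0%) and in 131 of the 525 in the windows (25.0%). Among the 28 promoters with a summit of the shControl-labelled list, 1 held a match, and among the 5 of the shHDAC5-labelled list, 1 did.

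Peaks of both lists were thinner on the ground in the windows than in the rest of the 24 chromosomes. The shControl-labelled list had 18.8 peaks per Mb in the windows against 40.1 in the rest, and the shHDAC5-labelled list 32.6 against 82.7. Stretches of at least 1 Mb without a peak of either list took up 42.8 Mb of the windows. Leaving out such stretches in both regions, the densities were 29.2 against 41.9 and 50.7 against 86.5 peaks per Mb. Density also differed between stretch and flank. The shControl-labelled list had 1.86 peaks per Mb in the gene-free stretches and 42.3 in the flanks, and the shHDAC5-labelled list 13.8 and 58.7. Less the peak-free stretches, it was 4.53 and 43.7 in the shControl-labelled and 33.5 and 60.7 in the shHDAC5-labelled list.

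Many peaks beside centromeres were weak, though a smaller part of them than of the rest of each list. The −log10 q of the authors' caller was 0 for 50.9% of those in the shControl-labelled list and for 71.3% of those in the shHDAC5-labelled list, against 60.1% and 78.7% outside the windows. Their median fold enrichment was 2.90 and 2.48, beside 2.72 and 2.33 for the rest of each list. Many peaks carried the same value, with a fold of 2.67 in 282 peaks of the shControl-labelled list and of 2.14 in 793 peaks of the shHDAC5-labelled list. The median width was 337 bp in the shControl-labelled list and 309 bp in the shHDAC5-labelled list, close to the 341 and 314 bp of the rest.

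Peaks at a q of at most 0.05 made up a larger part of the peaks beside centromeres than of either whole list. In the shControl-labelled list there were 239 of them (10.5% of its 2269, exact interval 9.30 to 11.9), against 5.1% of the whole list and 5.0% (4.87 to 5.12) outside the windows. In the shHDAC5-labelled list there were 206 (5.24% of its 3930, interval 4.57 to 5.99), against 0.419% of the whole list and 0.342% (0.319 to 0.366) outside. Those outside included 160 in the longest gene-free stretches of the other 14 chromosomes. The intervals inside and outside did not overlap for either list. They cover counting error only, and peaks that lie side by side are not independent.

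The share of the shHDAC5-labelled list that lay beside centromeres went up at each step of the threshold on q. Among all its peaks 1.58% lay in the windows, among those at q of at most 0.05 it was 19.7% (206 of 1045), and above a −log10 q of 5 it was 59.6% (90 of 151, interval 51.3 to 67.5). It was 72.6% (53 of 73, interval 60.9 to 82.4) at a −log10 q of 10 or more and 75.7% (28 of 37, interval 58.8 to 88.2) at 20 or more. For the shControl-labelled list the same shares were 1.87%, 3.87% (239 of 6176), 11.9% (29 of 244, interval 8.11 to 16.6), 8.43% (7 of 83, interval 3.46 to 16.6) and 21.4% (3 of 14, interval 4.66 to 50.8), so they did not rise at every step. The windows were 3.90% of the length spanned by the peaks.

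**Figure D1:**
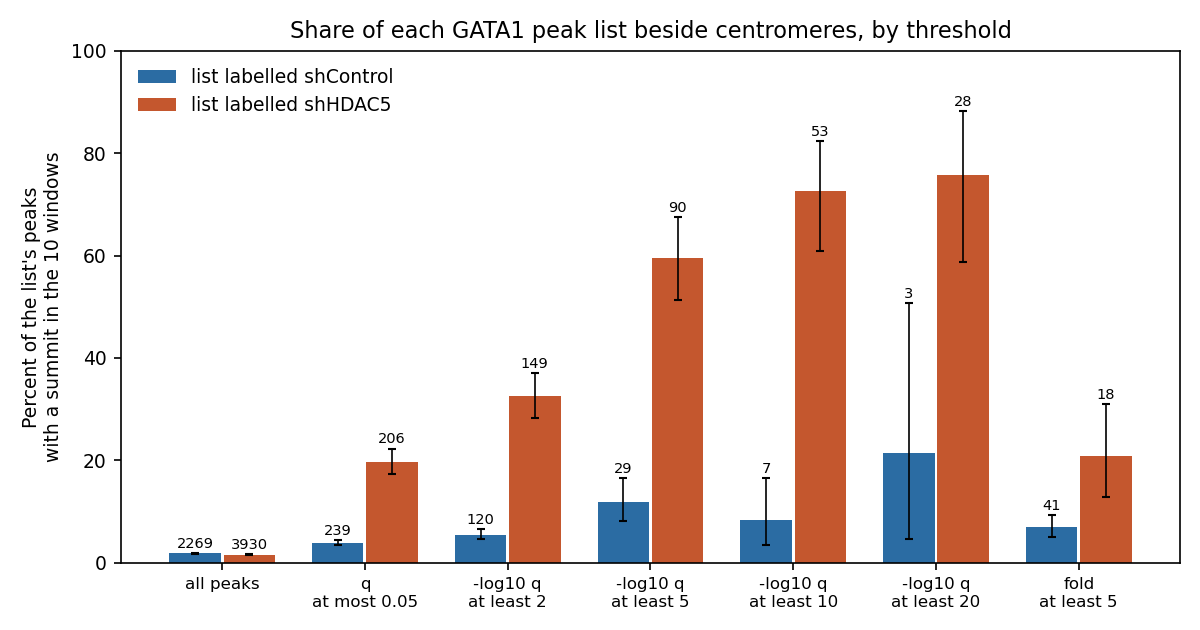
The percent of each list's peaks with a summit in the 10 windows (y axis) is plotted for all peaks and for 6 thresholds on q or fold (x axis); bars are shares, whiskers 95% exact binomial intervals, and the number above each whisker is the number of peaks in the windows. The share of the shHDAC5-labelled list goes from 1.58% of all peaks to 75.7% at a −log10 q of at least 20, and that of the shControl-labelled list from 1.87% to 21.4%, with 8.43% at the step before.

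Within the windows the peaks at q of at most 0.05 lay in different places in the 2 lists. Of the 206 in the shHDAC5-labelled list, 161 (78.2%, interval 71.9 to 83.6) lay in a gene-free stretch, whereas of the 239 in the shControl-labelled list 27 (11.3%, interval 7.58 to 16) did. For all peaks regardless of q the shares were 24.5% (961 of 3930, interval 23.1 to 25.8) and 5.73% (130 of 2269, interval 4.81 to 6.77). Every one of the 10 windows except that of chromosome 22 held such a peak of the shHDAC5-labelled list in its gene-free stretch, and 6 of the 10 windows held one of the shControl-labelled list. If pseudogenes and noncoding genes were disregarded, so that the stretch was the longest without a protein-coding gene, the shares at q of at most 0.05 were 88.3% and 43.5%.

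**Figure D2:**
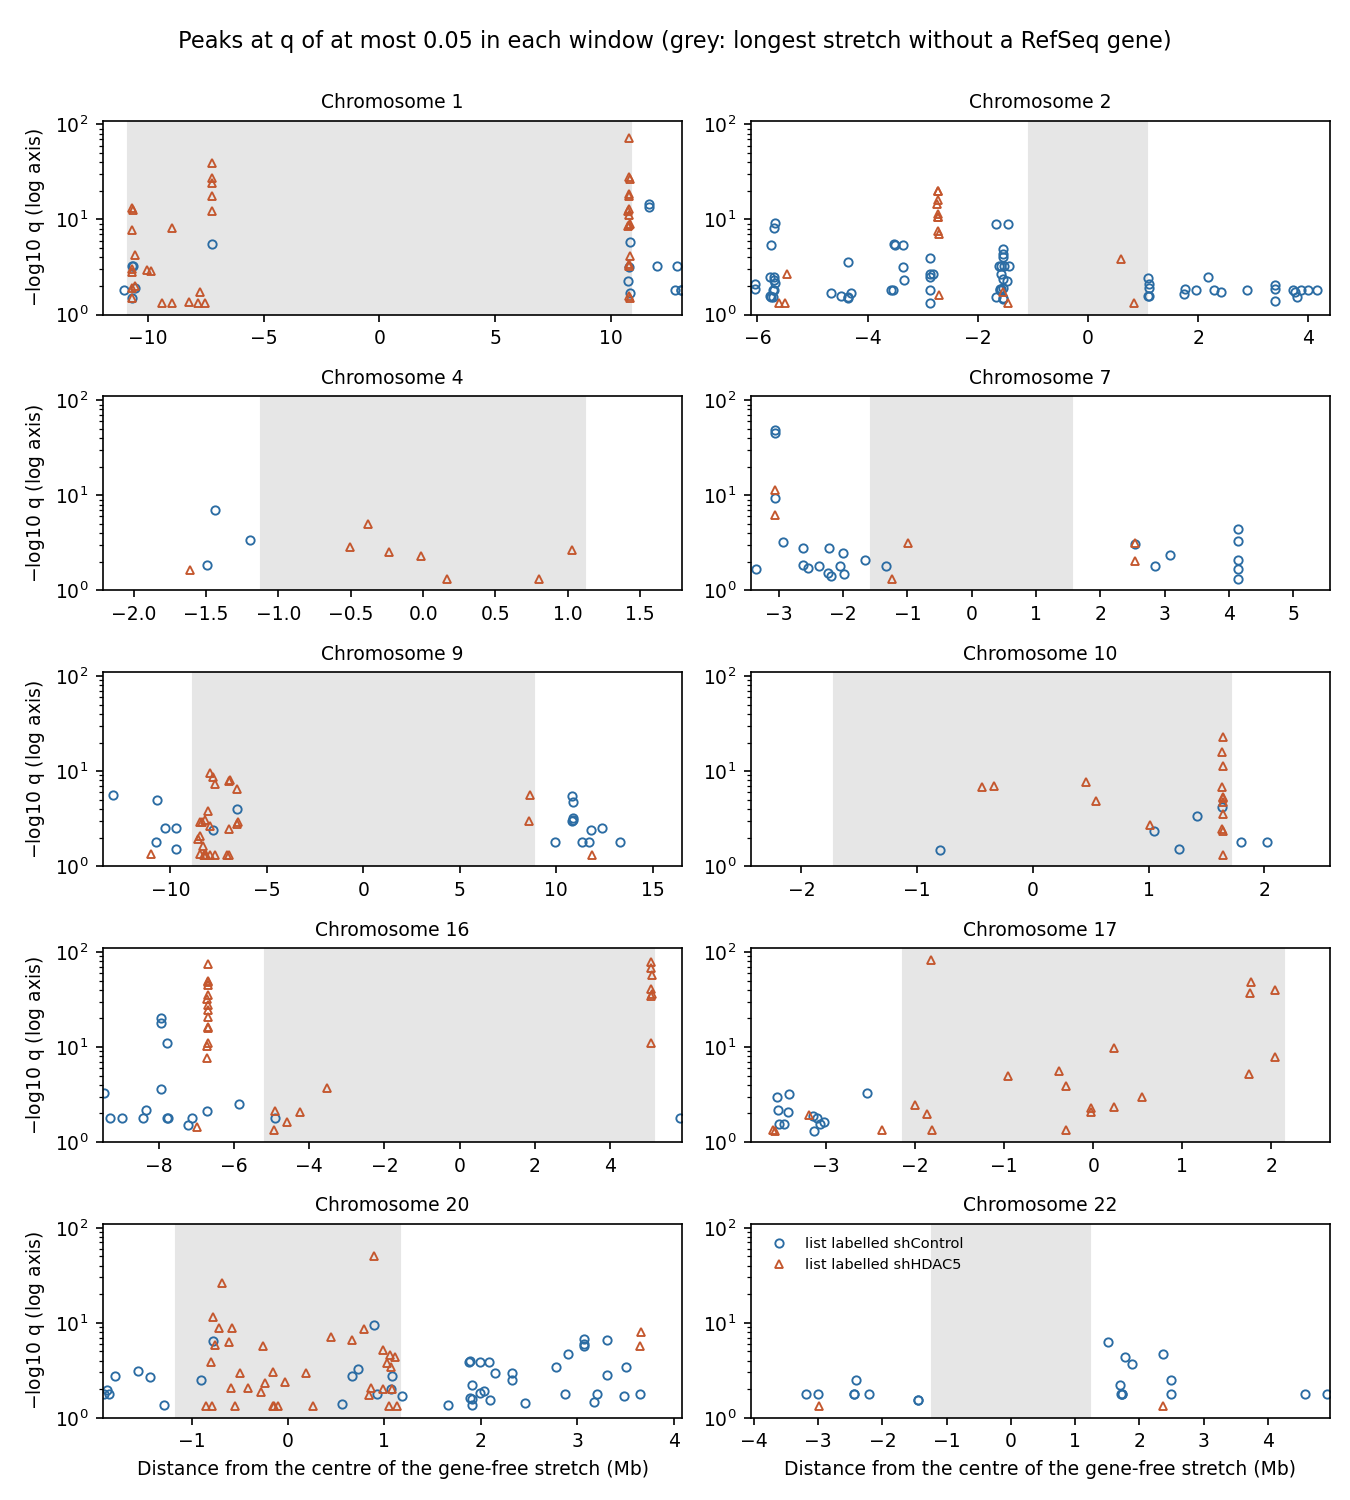
Each panel is one window and plots the −log10 q (y axis, log scale) of the peaks at q of at most 0.05 against their distance in Mb from the centre of the gene-free stretch (x axis), which is shaded grey; circles are the shControl-labelled and triangles the shHDAC5-labelled list. Of the 206 triangles 161 lie on grey, often stacked at its ends, and of the 239 circles 212 lie outside it.

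The windows differed among themselves. Chromosome 2 held the most peaks at q of at most 0.05 of the shControl-labelled list, 73, all of them in the flank, beside 17 of the other list, of which 2 lay in the gene-free stretch. On chromosome 20 the numbers were close, 46 and 40, but 37 of the 46 lay in the flank and 38 of the 40 in the gene-free stretch. Chromosome 1 had 17 peaks of the shControl-labelled list, 9 of them in the gene-free stretch, and 39 of the shHDAC5-labelled list, all in that stretch. Chromosome 9 had 19 and 29 peaks, with 2 and 27 in the gene-free stretch, and chromosome 17 had 12 and 22, with 0 and 18. Chromosome 16 had 17 and 27, with 1 and 12 in the stretch, and chromosome 10 had 7 and 16, with 5 and 16. Chromosome 7 had 25 and 6, with 1 and 2, chromosome 4 had 3 and 8, with 0 and 7, and chromosome 22 had 20 and 2, with none. In the shHDAC5-labelled list the window took 80.6% of the peaks at this threshold on the whole of chromosome 9, 58.7% on chromosome 16, 55.0% on chromosome 17 and 53.3% on chromosomes 4 and 20 each. On chromosome 22 it took 66.7%, which rests on 2 peaks. In the shControl-labelled list the share was above 15% on chromosome 9, with 27.5%, and on chromosome 22, with 52.6%.

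High fold enrichment split the lists in the same way. A fold of at least 5 was reached by 41 peaks beside centromeres in the shControl-labelled list (1.81%, whole list 0.485%), 40 of them in a flank. In the shHDAC5-labelled list it was reached by 18 (0.458%, whole list 0.0345%), all 18 in a gene-free stretch. In the shControl-labelled list the 29 peaks with a −log10 q of at least 5 had a median fold of 5.69, against 4.43 for such peaks outside the windows. Single peaks departed from this, such as chr7:56373418-56373796 with 45.4 at a fold of 3.89 and chr20:28308065-28308323 with 9.39 at 1.88. The 90 peaks of the shHDAC5-labelled list with a −log10 q of at least 5 had a median fold of 2.50, against 4.73 outside. At a −log10 q of at least 20 the median was 2.43 for its 28 peaks beside centromeres and 3.51 for the rest.

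**Figure D3:**
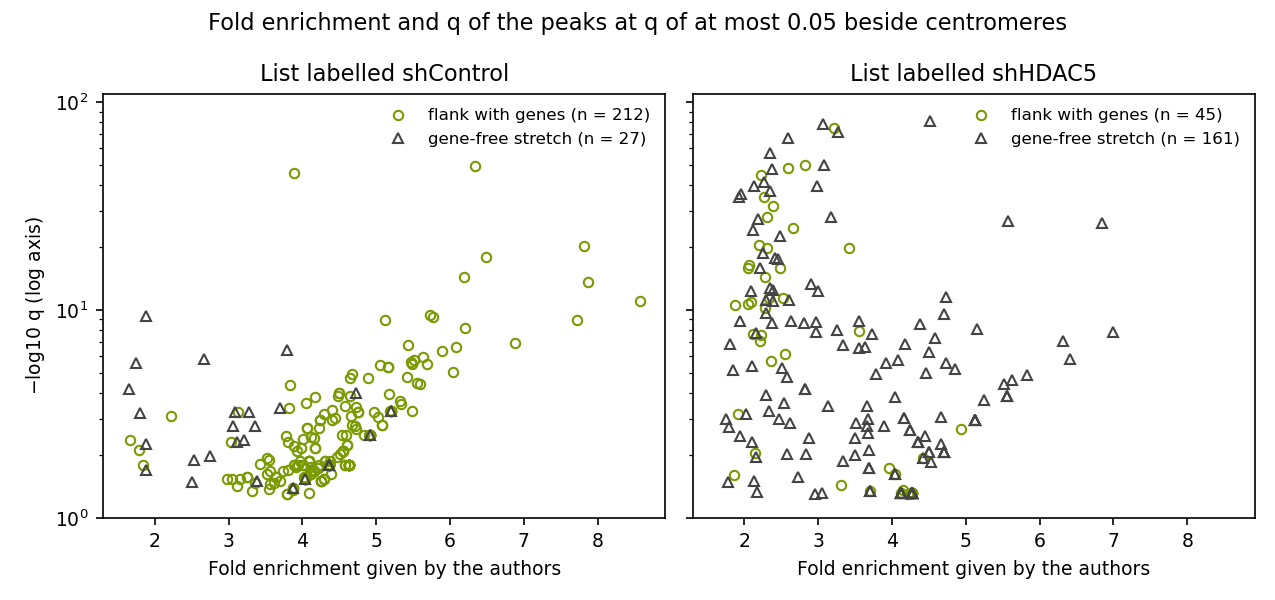
The −log10 q (y axis, log scale) of every peak at q of at most 0.05 beside a centromere is plotted against its fold enrichment (x axis), 1 panel per list, with circles for peaks in a flank and triangles for peaks in a gene-free stretch. On the right many peaks stand at a fold between 2 and 3 with a −log10 q above 10, and all peaks with a fold of at least 5 are triangles.

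The 10 peaks named next had the highest fold beside centromeres in the shControl-labelled list. Of these, 4 lay inside a pseudogene and the other 6 lay 4140 to 19749 bp from the nearest gene of any kind. The peak chr16:33491640-33492031 had a fold of 8.57 and a −log10 q of 11.1 and lay 4140 bp from the pseudogene LOC647208. On the same chromosome, chr16:33337458-33338319 had a fold of 7.82 with a −log10 q of 20.2, and chr16:33338442-33340057 a fold of 6.49 with 17.9. The nearest protein-coding gene to both was TP53TG3B, a member of a gene family in near-identical copies, 23126 and 22088 bp away. On chromosome 1, chr1:144103090-144103903 and chr1:144104006-144104781 had folds of 7.87 and 6.19 and lay 17305 and 18066 bp from the immunoglobulin pseudogene IGKV1OR1-1. The peak chr2:91658089-91660479, 2391 bp wide, lay inside the transcribed pseudogene LSP1P4 with a fold of 7.73. The peak chr4:49270507-49271586 lay inside the pseudogene LOC124900865 with 6.88, and chr20:30728209-30729087 inside the pseudogene SOWAHCP3 with 6.08. The peak chr7:56371425-56372226, inside the pseudogene LOC100419985, had 6.33. The peak chr2:87419351-87420138 had a fold of 6.21 and lay 19749 bp from the long noncoding RNA gene LINC01943.

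In windows without one of these 10, the highest fold was 6.04 on chromosome 9, at chr9:41266011-41266405, which lay 1976 bp from the pseudogene LOC107986999. It was 5.89 on chromosome 22, at chr22:15553811-15554187, which lay 145 bp from the pseudogene ARHGAP42P3. On chromosome 17 it was 5.20, 572 bp from the long noncoding RNA gene FAM27E5, and on chromosome 10 it was 4.64, 1050 bp from the pseudogene LOC107984164.

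Among its peaks beside centromeres, the highest −log10 q of the shControl-labelled list belonged to a pair of neighbouring peaks on chromosome 7. The first, chr7:56371425-56372226, had 49.1 at the fold of 6.33 given above. The other, chr7:56373418-56373796, inside the pseudogene LOC100419986, had 45.4 at a fold of 3.89. Both were also in the shHDAC5-labelled list at q of at most 0.05, with a −log10 q of 6.14 and 11.4 and folds of 2.56 and 2.53.

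The 10 peaks beside centromeres with the highest fold in the shHDAC5-labelled list lay 36772 bp or more from any gene. The peak chr9:45029464-45029842 had a fold of 6.99 and a −log10 q of 7.82, and the nearest RefSeq gene was 1889798 bp away. On chromosome 20, chr20:26731491-26731830 had a fold of 6.84 with a −log10 q of 26.2, chr20:26661822-26662146 had 6.41, chr20:27860087-27860411 had 6.32 and chr20:28478739-28479174 had 5.63. Their distances to the nearest gene were 480118, 410384, 720375 and 101651 bp. The peak chr10:40981052-40981341 had a fold of 5.82, and chr1:143262543-143263073 had 5.57 with a −log10 q of 26.9. The peaks chr17:24534669-24535082, chr2:93716309-93716654 and chr9:43955469-43955827 shared the values 5.56 and 3.85 for fold and −log10 q. Of these 10, the shControl-labelled list had an overlapping peak at chr20:28478739-28479174 and at chr1:143262543-143263073 and at no other.

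In the windows of chromosomes 16, 4, 22 and 7, which held none of these 10, the highest fold of this list was 5.25, 4.46, 4.27 and 4.27. The peak on chromosome 22, chr22:11049315-11049789, was the one of these 4 that lay in a flank, 74970 bp from the pseudogene ACTR3BP7.

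Among peaks beside centromeres, the highest −log10 q values of the shHDAC5-labelled list came with lower folds. The 10 highest there, singled out after their values were seen, ran from 47.8 to 81.5 at folds between 2.34 and 4.52. The first was chr17:23016186-23016528, with 81.5 at a fold of 4.52, and the second chr16:46386237-46386666, with 78.7 at 3.06. The peak chr16:34586571-34586999 followed with 75.3 at 3.21, and chr1:143214449-143214915 with 71.6 at 3.26. The widest peak of the whole list, chr16:46398326-46401627 with 3302 bp, had 56.8 at a fold of 2.34. The highest −log10 q of this list outside the windows was 50.3, and the highest of the shControl-labelled list was 49.1 inside and 63.0 outside.

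Some of the peaks at q of at most 0.05 lay in runs, here taken as neighbours no more than 50 kb apart, and others stood alone. Of the 239 in the shControl-labelled list, 80 had no such neighbour, and 27 runs of at least 3 held 125. Of the 206 in the shHDAC5-labelled list, 55 had none, and 20 runs of at least 3 held 121. Runs in the rest of the lists were not counted. The longest run of the shControl-labelled list was chr2:91503926-91686414, with 17 peaks over 182 kb and folds from 3.13 to 7.73, and another on the same chromosome, chr2:87348306-87425509, held 12. In the shHDAC5-labelled list chr1:143192723-143264813 held 16 peaks over 72.1 kb, chr16:34571554-34595718 held 14 over 24.2 kb, chr10:42066421-42080792 held 11 over 14.4 kb and chr2:90380673-90401295 held 10 over 20.6 kb. The run of 14 on chromosome 16 and that of 10 on chromosome 2 lay in flanks and together made up most of the 45 flank peaks of this list at q of at most 0.05.

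Several of these runs lay at the ends of the stretches that no peak of either list reached. There were 5 such stretches of at least 1 Mb that lay wholly or partly in the windows, on chromosomes 1, 2, 9, 16 and 22. Of the one on chromosome 22, 10.7 Mb long, 0.689 Mb lay in the window. Within 100 kb of their ends lay 119 of the 3930 peaks of the shHDAC5-labelled list (3.03%), 43 of its 206 at q of at most 0.05 (20.9%, interval 15.5 to 27.1) and 27 of its 53 with a −log10 q of at least 10 (50.9%, interval 36.8 to 64.9). For the shControl-labelled list it was 34 of 2269 (1.5%), 9 of 239 (3.77%, interval 1.74 to 7.03) and 0 of 7, an interval that reaches 41.0%. The stretches were bounded by summits of these same lists, so some peaks lay at their ends by construction, and these shares are description only.

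In their surroundings the peaks at q of at most 0.05 also differed from the rest of their list. Of the 239 in the shControl-labelled list, 22.2% had their summit inside a pseudogene and 13.0% inside a protein-coding gene, against 4.58% and 65.7% of the 5937 outside the windows. In the flanks alone, 53 of 212 (25.0%) lay inside a pseudogene. Among peaks of this list in the windows at any q, 14.4% lay inside a pseudogene and 20.1% inside a protein-coding gene. Of the 206 in the shHDAC5-labelled list, 96.1% lay inside no gene, against 50.1% of the 839 outside and 70.0% of its peaks in the windows at any q. The 839 outside included 160 in the longest gene-free stretches of the other 14 chromosomes, which lie inside no gene by construction. For the peaks at q of at most 0.05, the median distance to the nearest gene of any kind was 542 bp in the shControl-labelled and 265272 bp in the shHDAC5-labelled list. Gene density differs between stretch and flank by construction, so these distances follow from where the peaks lay.

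Few peaks lay at the ends of protein-coding genes. A summit within 1 kb of either end was found for 5.64% of the peaks beside centromeres in the shControl-labelled list (11.5% of the rest) and for 1.5% in the shHDAC5-labelled list (3.01% of the rest). At q of at most 0.05 it was 17 of 239 (7.11%, interval 4.2 to 11.1) against 20.9% of the rest, and 0 of 206 (interval up to 1.77%) against 5.96%. Of the 216 protein-coding genes in the windows, 93 had a summit of the shControl-labelled list near an end and 55 one of the shHDAC5-labelled list. At q of at most 0.05 the numbers were 14 and 0.

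Peaks of one list seldom had a partner in the other. An overlap of at least 1 bp was found for 326 of the 2269 peaks of the shControl-labelled list (14.4%, whole list 11.6%) and for 319 of the 3930 of the shHDAC5-labelled list (8.12%, whole list 5.54%). Among peaks at q of at most 0.05 it was 67 of 239 (28.0%, interval 22.4 to 34.2, whole list 17.6%) and 28 of 206 (13.6%, interval 9.23 to 19.0, whole list 15.4%), so the last share was no higher than the list's own. Of the 27 such peaks of the shControl-labelled list in gene-free stretches, 19 (70.4%, interval 49.8 to 86.2) overlapped a peak of the other list. In the flanks 48 of 212 (22.6%, interval 17.2 to 28.9) did. For the shHDAC5-labelled list the shares were 19 of 161 (11.8%, interval 7.26 to 17.8) in gene-free stretches and 9 of 45 (20%, interval 9.58 to 34.6) in flanks.

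A q of at most 0.05 in both lists was reached at 21 places on 8 chromosomes, 14 of them in gene-free stretches. The summits of a pair lay a median of 13 bp and at most 164 bp apart. The fold was higher in the shHDAC5-labelled list at 12 of the 14 places in gene-free stretches and at 3 of the 7 in flanks. At chr20:28307994-28308397 it had a fold of 3.08 and a −log10 q of 50.1, against 1.88 and 9.39 in the shControl-labelled list. The peak chr1:143262543-143263073 had 5.57 and 26.9 against 2.67 and 5.81, and chr20:26635448-26635911 had 4.73 and 11.6 against 3.80 and 6.38. The order was turned at LSP1P4, with 4.13 and 1.32 against 7.73 and 8.97, and in the chromosome 7 pseudogenes given above. Folds of the 2 lists were each set against that list's own background, and no replicate was at hand to say whether they differ.

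The edges of the windows were not edges of the data. In strips of 1 Mb on the inner side of the window edges, 8.10% of 914 peaks of the shControl-labelled list had a q of at most 0.05, and on the outer side 5.76% of 1284. For the shHDAC5-labelled list it was 2.55% of 1413 and 0.730% of 1781. The peak nearest to an edge from inside lay 56 bp within the window of chromosome 10 for the shControl-labelled list, with a fold of 3.51, and 569 bp for the other, with 2.14. From outside the nearest lay 715 bp beyond the window of chromosome 20, with 3.25, and 316 bp beyond that of chromosome 7, with 2.99.

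RNA of the genes in the windows was read in the 6 libraries labelled BxPC-3, which held 15179758 to 17854340 counts each. HDAC5, the targeted gene, went against its label. Its level was 95.4, 91.7 and 97.7 CPM (read counts scaled to the size of the library) in the libraries labelled shControl and 162, 161 and 169 CPM in those labelled shHDAC5, with a log2 fold change of 0.79 (SE 0.0358, n = 3 and 3, edgeR quasi-likelihood adjusted p = 3.95e-40). The fold changes below are therefore given between labels only, as libraries labelled shHDAC5 over libraries labelled shControl. In the shControl and shHDAC5 libraries the epithelial markers KRT8 stood at 717 and 1010 CPM, KRT18 at 404 and 327 CPM and KRT7 at 371 and 25.3 CPM. KRT19 stood at 0.0202 and 0.100 CPM, EPCAM at 1.84 and 1.99 CPM and CDH1 at 1.43 and 1.33 CPM. The epithelial markers did not go together, since KRT19, EPCAM and CDH1 were low beside KRT8 and KRT18. The name of the cell line is that of the labels and was not tested. GATA1 itself was at 0.344 ± 0.0930 CPM in the shControl libraries and 2.85 ± 0.438 CPM in the shHDAC5 libraries (SD, n = 3). In bulk RNA, fewer cells of a type and less RNA per cell cannot be told apart. Nothing in the labels says whether the 3 libraries of a group were grown apart, so p-values reflect only how these libraries vary, and that variation may be technical.

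Protein-coding genes in the windows moved about as often as genes at large. The counts covered 175 of the 216, and 116 passed edgeR's expression filter. At an adjusted p under 0.05, 55 of the 116 were higher (47.4%, all genes tested 44.8%), 48 were lower (41.4%, all genes tested 39.9%) and 13 did not pass. Their median log2 fold change was 0.13, beside 0.09 for all 19181 genes tested. With a summit of either list within 1 kb of an end, 75 genes were tested, of which 37 were higher, 30 were lower and 8 did not pass, with a median of 0.20. Without such a summit, 18 of 41 were higher and 18 were lower, with a median of 0.03. These shares lay near the background, and the ChIP was labelled as another cell line.

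Beside a peak at q of at most 0.05 there were 10 counted genes, all of them beside peaks of the shControl-labelled list. FOXD4L5, a forkhead gene in a family of near-identical copies, had no count in any library. Of the 9 others, 4 were higher and 5 were lower, where 44.8% and 39.9% of all genes tested were. In none of the 9 did the 2 groups overlap, but how often this held over all genes was not counted. MAP2K3, the kinase that switches on p38 MAP kinases, had 45.6, 50.6 and 47.6 CPM in the shControl libraries and 224, 224 and 227 CPM in the shHDAC5 libraries, a log2 fold change of 2.23 (SE 0.0385, edgeR adjusted p = 3.27e-79). Its peak lay inside the gene, 988 bp from an end, with a fold of 4.04.

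FOXI3, a forkhead factor of early ectoderm, had no count in any shControl library and 1.83, 2.29 and 1.29 CPM in the shHDAC5 libraries. Set against 3 counts over the shControl group, that was at least 27.9-fold higher (edgeR adjusted p = 3.13e-15). NEURL3, an E3 ubiquitin ligase, had 0.257, 0.349 and 0 CPM against 2.78, 1.95 and 3.24 CPM, on 9 and 139 counts in all (log2 fold change 3.72, SE 0.421, edgeR adjusted p = 5.52e-14). FAM178B had 0.0644, 0.140 and 0.241 CPM against 2.96, 2.69 and 2.80 CPM, on 7 and 147 counts (log2 fold change 4.16, SE 0.418, edgeR adjusted p = 2.34e-16). All of these 3 genes were close to silent in the shControl libraries.

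The 5 genes that were lower were expressed in every library. NETO2, an auxiliary subunit of kainate receptors, had 33.0, 31.2 and 31.8 CPM against 18.6, 16.5 and 18.4 CPM (log2 fold change −0.84, SE 0.0744, edgeR adjusted p = 2.47e-19). NANP, a phosphatase of sialic acid synthesis, had 16, 16.3 and 17.1 CPM against 11.7, 10.7 and 14.5 CPM (log2 fold change −0.42, SE 0.0984, edgeR adjusted p = 5.91e-05). The remaining 3 belong to the duplicated families whose promoters are shown above, so their counts may include or lack reads of their copies. ANKRD36 had 64.8, 61.1 and 62.5 CPM against 34.5, 36.2 and 32.7 CPM (log2 fold change −0.87, SE 0.0541, edgeR adjusted p = 2.88e-29). ANKRD36C fell by 0.44 (SE 0.0710, edgeR adjusted p = 2e-08) and FAHD2A by 0.25 (SE 0.0538, edgeR adjusted p = 1.11e-05) on the log2 scale.

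**Figure D4:**
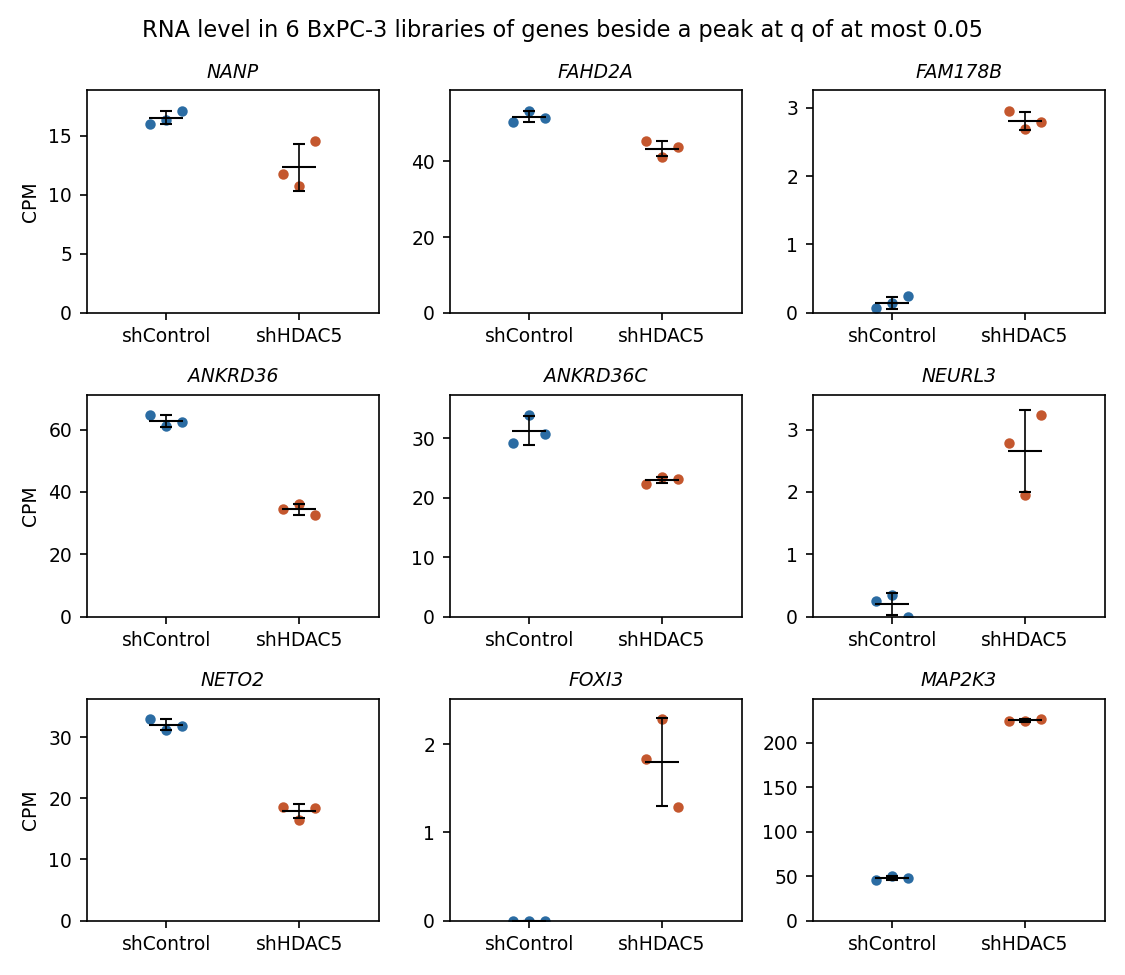
CPM (y axis, from 0) of the 9 tested genes beside a peak at q of at most 0.05 is plotted by label (x axis); points are the 3 libraries of each group, and bars give mean and SD. FAM178B, NEURL3, FOXI3 and MAP2K3 are higher in all 3 libraries labelled shHDAC5, MAP2K3 at 224 to 227 against 45.6 to 50.6 CPM, and the other 5 are lower in all 3.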

How the data were processed

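GATA1 ChIP was measured in 8 samples labelled PANC-1 and RNA in 6 libraries labelled BxPC-3, grouped by treatment and antibody in the labels. Each peak list gives, as deposited by the authors, a fold enrichment (ratio) and −log10 q per peak, and a score that was not used. The authors deposited RNA as raw counts, one whole number per Ensembl gene and library. The submitters' processing notes name the build hg38 and, without roles, MACS2 2.2.7.1 and featureCounts 2.0.1 beside tools for read cleaning. Not given in the sources used here are the aligner, any pooling of samples for peak calling, and the treatment of strand, duplicates and reads matching several places. A different treatment of reads matching several places could change peaks in satellites and duplications, which was not tested.

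Summits were start plus offset. Peaks shared at least 1 bp to count as overlapping, and shares carry 95% exact binomial (Clopper-Pearson) intervals that cover counting error only. Genes, biotypes and promoters came from RefSeq on GRCh38, and 40239 of 61541 gene IDs had a position. RNA was tested with edgeR 4.0.16 (R 4.3.3), filtered by group, TMM-scaled, quasi-likelihood test on group alone, Benjamini-Hochberg adjustment, threshold 0.05; DESeq2 1.42.0 was an alternative. Intervals came from scipy 1.17.1 under Python 3.11.15, and the overlap and test functions were tested on simulated data. Replicates of a group differed beyond sampling noise (chi-square per degree of freedom 1.57 to 2.07 between pairs).

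The windows, gene lists and thresholds were chosen with earlier results of these data known. Named peaks were picked among those beside centromeres. They are the 10 with the highest fold per list, the highest per window, and pairs at q of at most 0.05 in both lists. Named genes are protein-coding, tested, and within 1 kb of a summit at q of at most 0.05, besides HDAC5. Marker genes read were KRT7, KRT8, KRT18, KRT19, EPCAM and CDH1 (epithelial), COL1A1, COL1A2 and PDGFRB (fibroblast), PTPRC, CD3E and CD14 (leukocyte), PECAM1 and CDH5 (endothelial), and GATA1, HBB, HBG1 and ALAS2 (erythroid). Another marker is not reported here. Alternatives changed the windows, the thresholds, the overlap rule, the RNA scaling, filter and test, and left out each window or library in turn. Gene-free stretches and their alternatives, distances to peak-free stretches and the ranking by q were added after seeing the data.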

Additional observations from a re-analysis of the deposited data

Results flagged for a closer look

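Peaks also lay on contigs that are not part of chromosomes 1 to 22, X or Y, which entered no comparison. The shControl-labelled list had 394 peaks there on 58 contigs, 110 of them at q of at most 0.05 (27.9%, exact interval 23.5 to 32.6), with a highest fold of 9.41 and a highest −log10 q of 55.6. The shHDAC5-labelled list had 536 on 82 contigs, 56 of them at q of at most 0.05 (10.4%, interval 7.99 to 13.4), with 5.98 and 45.8. Both shares lie above those of the whole lists, 5.1% and 0.419%. No control list was at hand, and these peaks were looked at only because they lie outside the main measurement.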

How the results depend on the processing

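With windows shrunk by 1 Mb at each end, 1.12% of the shControl-labelled and 1.01% of the shHDAC5-labelled list lay in them, and without each window in turn 1.45% to 1.83% and 1.26% to 1.49%. Of the peaks at q of at most 0.05, 3.87% and 19.7% lay in the full windows, and of those with a fold of at least 5, 6.98% and 20.9%. The share of peaks beside centromeres past the threshold on q was 5.29% and 3.79% above a −log10 q of 2, and 1.28% and 2.29% at 5, where the order of the lists turned. Without each window in turn it was 9.43% to 11.3% and 4.58% to 6.01%. Overlap with the other list was 7.05% and 4.07% with 50% reciprocal overlap and 6.13% and 3.54% with summits within 100 bp. With q of at most 0.05 in both lists it was 8.79% of 239 and 10.2% of 206. Each of these settings counted equally many peaks in both lists (160, 139 and 21). Which share was higher therefore followed only from the number of peaks it was taken over. The share of peaks at q of at most 0.05 that lay in gene-free stretches rose to 43.5% and 88.3% with the longest stretch free of protein-coding genes. It was 12.6% and 84.0% with every gene-free stretch of at least 1 Mb, 13.8% and 70.0% above a −log10 q of 5, and 8.11% to 16.3% and 73.1% to 84.1% without each window in turn. The fewer genes of the stricter definition lengthen the stretch by construction.

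RNA calls stayed within 1.5 times under the other scaling, filter, test and distance and without each library in turn, where 52 to 54 genes in the windows were higher and 49 to 51 lower. Requiring a fold of at least 2 left 27 higher and 18 lower of 116, and 17 and 10 of 75 beside a peak. The share of all genes at that fold was not counted, so nothing particular to the windows is read from these numbers. Counting only genes beside peaks at q of at most 0.05 left 4 higher and 5 lower of 9. With the replicate number as a block, 54 genes in the windows were higher and 48 lower, and 36 and 30 beside a peak. Same-numbered libraries did not deviate together (correlations −0.013, 0.003 and 0.006), so the numbers do not pair them. All 9 named genes kept side and direction under the 10 refits. No paired analysis of the peak lists was possible because each condition has 1 list. With 1 list per condition, replicate error limits every comparison of peaks.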

Other observations

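Gene-free stretches outside the 10 windows held peaks of the shHDAC5-labelled list too. The longest gene-free stretch on each of the other 14 chromosomes, 117 Mb in all, held 160 of the 546 peaks at q of at most 0.05 that this list had on those chromosomes (29.3%), on 10 of the 14. The shares were 17 of 22 on chromosome 18, 33 of 61 on chromosome 12, 33 of 84 on chromosome 6 and 27 of 90 on chromosome 11. On chromosomes 13, 14, 15 and 21 there were 0, but the stretches there held only 1, 0, 24 and 0 peaks of this list at any q. In all 14 stretches the shControl-labelled list had 52 of 3526 (1.47%), of which 21 lay on chromosome 12 and 12 on chromosome 6.

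The other marker genes read in the RNA libraries were mostly low. In the libraries labelled shControl and shHDAC5, the fibroblast gene COL1A1 stood at 92.3 ± 4.13 and 79.6 ± 2.40 CPM (SD, n = 3) and PDGFRB at 29.6 ± 1.70 and 6.59 ± 0.309 CPM, while COL1A2 was at 0 and 0.0616 CPM. The leukocyte genes PTPRC and CD3E and the endothelial PECAM1 stayed below 0.5 CPM in the mean of both groups, CD14 was at 0.0667 and 1.70 CPM and CDH5 at 0.975 and 0.823 CPM. Of the erythroid genes, HBB was at 0 and 5.13 CPM and ALAS2 at 1.01 and 4.72 CPM, and HBG1 was at 0 and 0.0209 CPM.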
